A study of Homo sapiens with 10 samples.

Results

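The protein kinase C (PKC) isoforms were examined in RNA sequencing of human embryonic stem cells as 8 genes chosen by name: the classical isoforms PRKCA and PRKCB, the calcium-independent, diacylglycerol-dependent isoforms (nPKC) PRKCD, PRKCE, PRKCH and PRKCQ, and the atypical isoforms PRKCI and PRKCZ. They were 8 of 55841 genes in the count table, and all 8 were among the 23552 genes that passed the filter on low counts. The rule that picks them uses gene names and no measured value. The design text of the deposit mentions inhibitors of protein kinase C, but no label of any library carries such a treatment, and whether a library was treated is not resolved here.

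Protein kinases C are serine/threonine kinases that relay signals from receptors at the cell surface. When phospholipase C cleaves membrane phosphoinositides, it releases diacylglycerol and a messenger that frees stored calcium. Classical isoforms need both calcium and diacylglycerol, nPKC isoforms need diacylglycerol alone, and atypical isoforms respond to neither and work instead in complexes with scaffold proteins such as PAR3 and PAR6, which set the polarity of epithelial cells. In cultures of pluripotent cells, drugs that activate PKC promote differentiation and broad inhibitors of PKC help to maintain the undifferentiated state.

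The cells were of 1 line, called HES9 in the labels and WA09 in the study's text, a difference that is not resolved here. They were grown in mTESR1 medium on matrigel, free of feeder cells, with no other treatment, genetic change or age given in the labels. General libraries came from the unsorted culture, and HHH libraries from the cells sorted for the highest EPCAM, GCTM2 and CD9, which the study treats as the subset with the greatest capacity for self-renewal. Each population had 5 libraries, in batch 1 (2 general and 2 HHH) and batch 2 (3 and 3), and the labels do not say what sets the batches apart. Nothing says that libraries came from separate cultures, so p-values measure only the spread between these libraries, which may be technical. The unsorted population contains the sorted cells, and in bulk RNA fewer cells of a type cannot be told apart from less RNA per cell.

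Total counts per library ran from 47242595 to 78503395. CPM denotes counts scaled to a common library size with TMM factors. A detection limit of 3 counts corresponded to 0.0460 to 0.0687 CPM and covers counting error only. The 7 pluripotency markers were present in every library and together reached 4056 to 5414 CPM, with NANOG higher (log2 fold change 0.44, adjusted p = 0.00572) and SOX2 lower (-0.26, 0.0375) in HHH. Of the 5 neural progenitor markers 4 could be tested and 3 were lower in HHH (SOX1, DLK1 and LHX5), with a sum of 4.76 to 13.9 CPM in general and 1.19 to 1.74 CPM in HHH. COL3A1, LUM and DCN of the fibroblast list stayed under 1 CPM in every library, and COL1A1 was lower in HHH. COL1A2 measured 68.8 to 112 CPM over all libraries and was not called (log2 fold change -0.28, adjusted p = 0.106). The sum of the 5 genes was 115 to 138 CPM in general and 77.9 to 119 CPM in HHH. All 5 mesendoderm markers, and the blood cell markers PTPRC, CD3E, SPI1 and HBB, were under 1 CPM in every library.

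The genes lie apart in the genome (GENCODE 44, GRCh38). PRKCA (ENSG00000154229) is at chr17:66302613-66810743 and PRKCB (ENSG00000166501) at chr16:23835983-24220611, both on the forward strand. PRKCD (ENSG00000163932) is at chr3:53156009-53192717 and PRKCI (ENSG00000163558) at chr3:170222424-170305977. The promoters of PRKCA and PRKCB are shown because these genes stood lower together in HHH, and that of PRKCI because it gave the most abundant isoform and differed in direction between batches. Each sequence is the 250 bases before the start of transcription, from RefSeq (GRCh38.p14), and these 3 starts equal those of GENCODE. Capitals mark the GC box GGGCGG, a motif to which Sp and KLF factors bind, found on either strand and therefore also as CCGCCC.
PRKCA, chr17:66302363-66302612, forward strand: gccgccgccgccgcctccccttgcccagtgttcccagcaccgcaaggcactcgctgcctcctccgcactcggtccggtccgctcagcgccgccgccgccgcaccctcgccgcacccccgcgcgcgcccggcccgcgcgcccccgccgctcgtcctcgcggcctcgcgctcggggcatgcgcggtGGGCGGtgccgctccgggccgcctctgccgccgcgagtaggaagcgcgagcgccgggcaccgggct
PRKCB, chr16:23835733-23835982, forward strand: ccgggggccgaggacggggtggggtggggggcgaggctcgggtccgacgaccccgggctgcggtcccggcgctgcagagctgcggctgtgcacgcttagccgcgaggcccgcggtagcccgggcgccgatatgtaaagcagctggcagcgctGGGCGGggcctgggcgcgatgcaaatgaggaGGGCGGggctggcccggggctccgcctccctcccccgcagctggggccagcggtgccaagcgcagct
PRKCI, chr3:170222174-170222423, forward strand: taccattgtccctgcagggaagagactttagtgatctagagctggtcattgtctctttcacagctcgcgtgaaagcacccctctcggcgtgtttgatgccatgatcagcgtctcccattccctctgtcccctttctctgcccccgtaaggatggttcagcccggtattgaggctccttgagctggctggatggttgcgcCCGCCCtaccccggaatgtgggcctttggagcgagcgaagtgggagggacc

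PRKCA held 1 GC box and PRKCB held 2, all on the forward strand, whereas the single GC box of PRKCI was on the reverse strand. Of 35116 promoter windows of the same length in the table, 42.6% had this motif, so its presence did not set these genes apart. None of the 3 windows held TATAAA on either strand, which 10.7% of the windows did. The promoters differed more in base composition: 82.0% of the bases were G or C in PRKCA, 77.2% in PRKCB and 58.0% in PRKCI, against a median of 58.0% over all windows. CpG dinucleotides numbered 47, 30 and 12, against a median of 11.

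The cells expressed all 8 isoforms, and 1 of them dominated. Levels between genes were compared only per length, as counts per base of merged exon, and are given as the share of the summed level of the 8. PRKCI, the atypical kinase of the polarity complex, made up 61.8% of the sum on average, from 56.0% to 68.0% over the 10 libraries. PRKCQ, best known from T cell receptor signalling, came next with 17.4% (14.5% to 19.3%). PRKCZ, the other atypical isoform, followed with 7.64% (6.31% to 9.62%). These 3 held the same order in 10 of 10 libraries. PRKCA, PRKCH, PRKCB and PRKCD had close means over the 10 libraries, of 3.45%, 3.29%, 3.12% and 3.08%. PRKCA exceeded PRKCH in 6 of 10 libraries, PRKCH exceeded PRKCB in 3, and PRKCB exceeded PRKCD in 6. Neighbours in this order were thus not separated over all libraries, and the order differed between batches. PRKCH held 1.18% to 2.21% in batch 1, under PRKCA, PRKCB and PRKCD in every library, and 4.05% to 5.04% in batch 2. PRKCD exceeded PRKCB in every batch 1 library, and PRKCB exceeded PRKCD in every batch 2 library. PRKCA exceeded PRKCD in all 10. PRKCE was last in all 10, with 0.216% (0.107% to 0.372%) and between 25 and 127 counts.

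**Figure D1:**
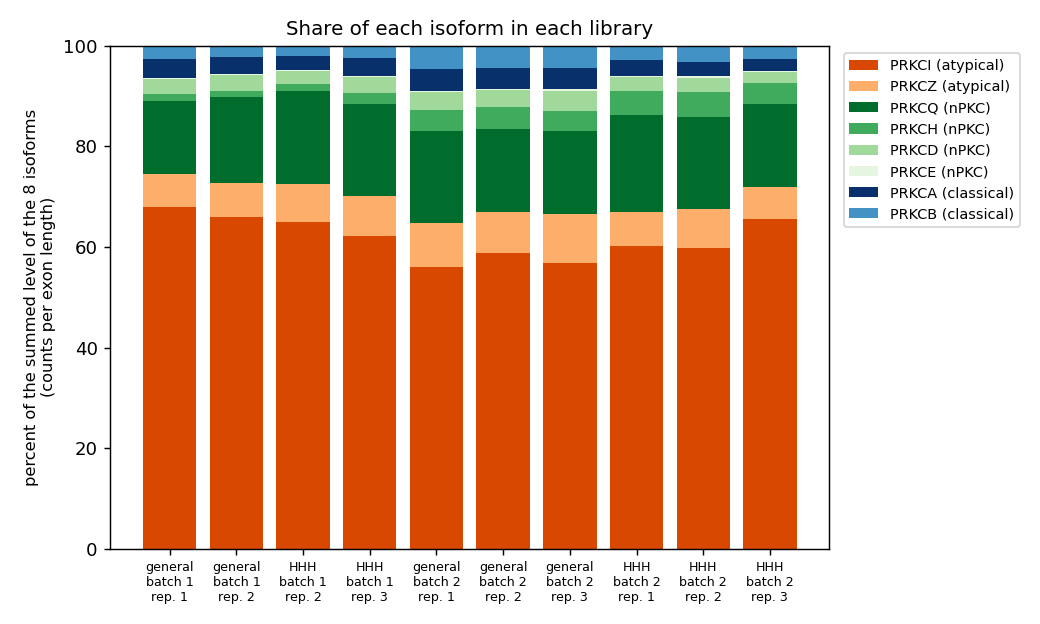
Share of each isoform in the summed level of the 8 isoforms (counts per base of merged exon, percent, vertical axis) in each of the 10 libraries (horizontal axis). PRKCI takes 56.0% to 68.0% of every bar, and the classical isoforms PRKCA and PRKCB together take 4.79% to 8.94%.

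By class, the atypical isoforms held 69.5% ± 3.33 of the sum (SD, n = 10), the nPKC isoforms 24.0% ± 2.46 and the classical isoforms 6.57% ± 1.54. The length used matters for the smaller classes: per coding length the nPKC share was 15.4% and the classical share 10.6%, with PRKCZ ahead of PRKCQ. By the length implied by the deposited RPKM values PRKCD was 4th and PRKCH 7th, whereas PRKCI was first and PRKCE last by every length tried. The classical share was 7.59% ± 1.53 in general and 5.55% ± 0.618 in HHH (SD, n = 5 each). In batch 2 it was 8.50% to 8.94% in general and 4.96% to 6.01% in HHH, without overlap, while in batch 1 the populations overlapped (5.53% and 6.38% in general, 4.79% and 6.02% in HHH). The summed level of the nPKC isoforms was 2.88 to 3.91 times that of the classical isoforms in general and 3.94 to 4.74 times in HHH. These are descriptions without a test. Scaled to TPM, all isoforms looked lower in batch 1, with a sum of 75.1 to 107 TPM against 152 to 181 TPM in batch 2. Short nuclear and nucleolar RNAs took 2.71% to 4.97% of the counts of batch 1 libraries and 0.418% to 0.727% in batch 2, and in CPM per kilobase of exon the sum was 50.2 to 58.0 in batch 1 and 49.0 to 62.1 in batch 2. Between libraries each gene is therefore given in CPM.

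Whether the sorted subset differed from the whole culture in its PKC isoforms was asked in all 10 libraries with batch as a term. PRKCB was the only isoform called at an adjusted p under 0.05 (edgeR's quasi-likelihood test, Benjamini-Hochberg over all genes tested), and it was lower in HHH. So 1 of 8 isoforms was called, where 5.83% of all genes tested were called, 3.89% as lower and 1.94% as higher in HHH. None was called with a fold change over 1.5 in addition, which 2.98% of all genes were (DESeq2, without that fold threshold, called the same number of isoforms as edgeR, 1). No isoform moved by as much as 1.5-fold in this comparison.

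**Figure D2:**
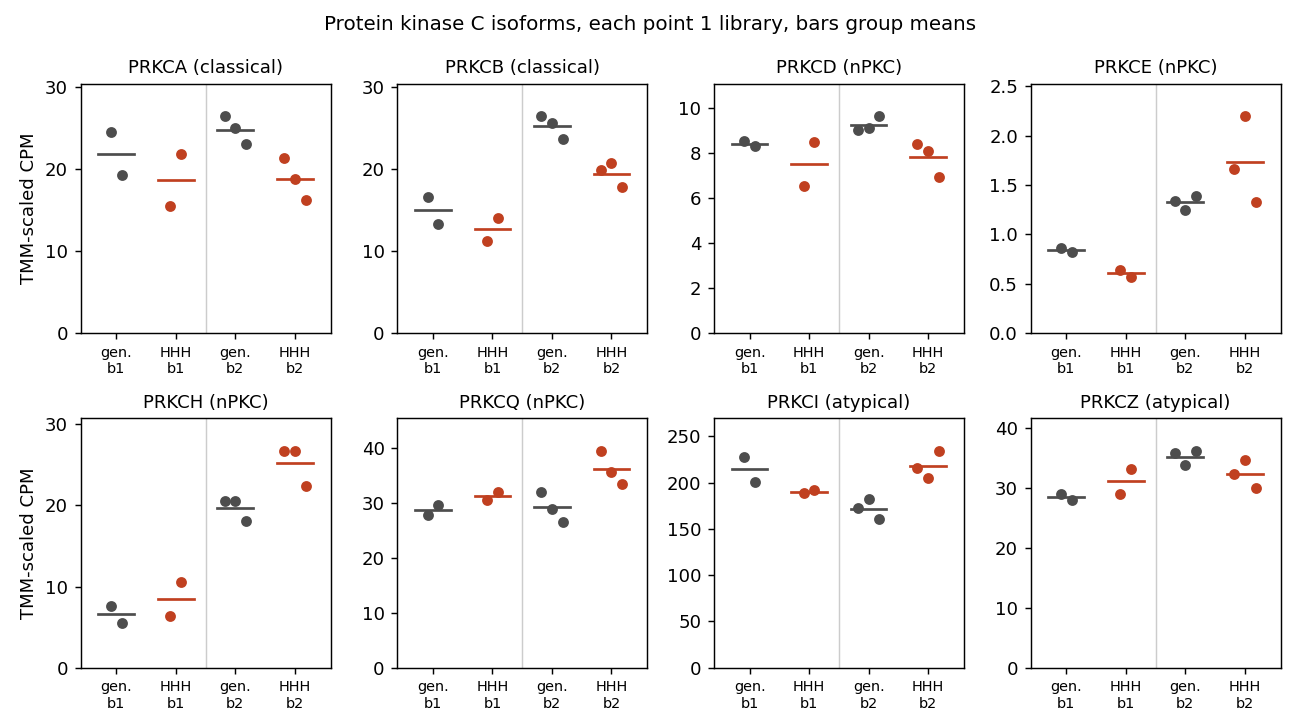
TMM-scaled CPM (vertical axis, from 0, scaled separately for each isoform) of the 8 isoforms in general (gen.) and HHH libraries of batch 1 (b1) and batch 2 (b2). Each point is 1 library and each bar the mean of 2 libraries in batch 1 or 3 in batch 2. In batch 2 the HHH points of PRKCA, PRKCB and PRKCD lie below all general points and those of PRKCH, PRKCQ and PRKCI above them.

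The classical isoforms stood lower in HHH in both batches. PRKCB, the isoform of B cell receptor signalling, measured 16.7 and 13.3 CPM in the general libraries of batch 1 and 11.3 and 14.0 CPM in the HHH libraries. In batch 2 it measured 26.5, 25.6 and 23.7 CPM in general and 19.9, 20.7 and 17.8 CPM in HHH. The populations overlapped in batch 1 and did not in batch 2, and 5 of 5 HHH libraries were under the general mean of their batch. PRKCB was 1.25-fold lower in HHH, a log2 fold change of -0.32 (SE 0.0905, 95% interval -0.52 to -0.13, adjusted p = 0.0495). This call sat at the threshold. It was kept without general replicate 2 (adjusted p = 0.0207) or HHH replicate 3 of batch 1 (0.0150), and was lost when any one of the other 8 libraries was left out, with adjusted p from 0.0817 to 0.142. The neural progenitor markers SOX1, DLK1 and LHX5, and COL1A1, were lower in the same HHH libraries, and their part in the PRKCB difference was not tested. PAX6 was not called (log2 fold change -0.15, adjusted p = 0.665), and HES5 could not be tested.

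PRKCA, a broadly expressed isoform, measured 24.5 and 19.2 CPM in general and 15.4 and 21.8 CPM in HHH in batch 1. In batch 2 the values were 26.4, 24.9 and 23.0 CPM in general and 21.2, 18.8 and 16.2 CPM in HHH. As for PRKCB, 5 of 5 HHH libraries were under the general mean of their batch, with overlap in batch 1 and none in batch 2. The log2 fold change was -0.33 (SE 0.110, adjusted p = 0.0955), which did not pass the threshold. It passed without general replicate 2 (adjusted p = 0.0494) or HHH replicate 3 (0.0163) of batch 1.

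PRKCA and PRKCB varied together across libraries. After the batch means were subtracted, the correlation of their log2 CPM over the 10 libraries was 0.958, and PRKCD followed both, at 0.900 with PRKCA and 0.851 with PRKCB. These points share libraries, sorting and depth, and the values are a description. By the same measure the protein-coding genes most like PRKCB, of 13244 compared, were CTDSP1 (0.986), A2M (0.980) and SLC5A5 (0.979).

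Of the nPKC isoforms, PRKCH and PRKCQ stood higher in HHH, PRKCD lower, and none was called over both batches. PRKCQ measured 27.7 and 29.6 CPM in general and 30.5 and 32.0 CPM in HHH in batch 1. In batch 2 it measured 32.0, 28.9 and 26.5 CPM in general and 39.4, 35.6 and 33.5 CPM in HHH. It was the only isoform whose HHH libraries were above the general libraries in both batches without overlap. Of all genes tested, 43.5% did not overlap in batch 1 and 36.2% in batch 2, in either direction. The share for both batches at once was not computed. The log2 fold change of PRKCQ was 0.24 (SE 0.0783, adjusted p = 0.0959). PRKCH, an isoform prominent in epithelia, measured 7.59 and 5.55 CPM in general and 6.37 and 10.6 CPM in HHH in batch 1, with overlap. In batch 2 the values were 20.6, 20.6 and 18.1 CPM in general and 26.7, 26.7 and 22.4 CPM in HHH, all HHH libraries being higher. The log2 fold change of PRKCH was 0.36 (SE 0.125, adjusted p = 0.115), and it passed without HHH replicate 2 of batch 1 (0.45, adjusted p = 0.0316).

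PRKCD, an nPKC isoform linked to apoptosis, measured 8.52 and 8.28 CPM in general and 6.54 and 8.49 CPM in HHH in batch 1. In batch 2 it measured 9.03, 9.08 and 9.62 CPM in general and 8.40, 8.06 and 6.91 CPM in HHH. The populations overlapped in batch 1 and not in batch 2, and the log2 fold change was -0.21 (SE 0.0952, adjusted p = 0.220). PRKCE was measured with the fewest counts, at 0.572 to 0.858 CPM in batch 1 and 1.25 to 2.20 CPM in batch 2. Its log2 fold change was 0.10, with a 95% interval from -0.31 to 0.52 (adjusted p = 0.801), and was -0.07 without HHH replicate 2 of batch 2.

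**Figure D3:**
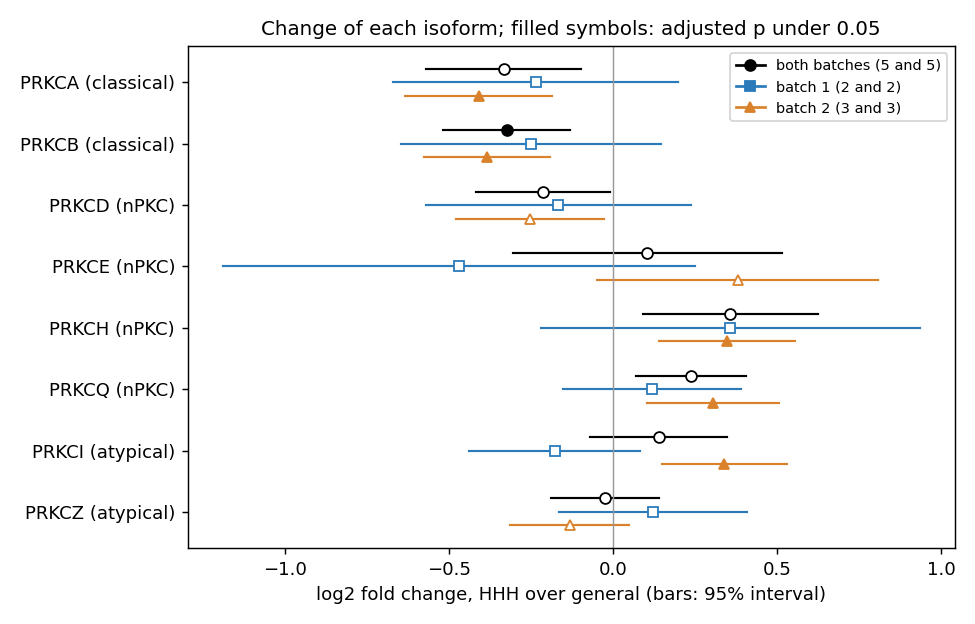
Log2 fold change of HHH over general (horizontal axis, bars are 95% intervals) for each isoform in both batches together, in batch 1 alone and in batch 2 alone. Filled symbols passed an adjusted p of 0.05: PRKCB over both batches, and PRKCA, PRKCB, PRKCH, PRKCQ and PRKCI in batch 2 alone. PRKCI, PRKCE and PRKCZ lie on opposite sides of 0 in the 2 batches.

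Within batches the picture differed. In batch 1 alone, with 2 libraries against 2, none of 8 isoforms was called by edgeR and none had an unadjusted p under 0.05, and 0.573% of all genes were called. In batch 2 alone, with 3 against 3, 5 of 8 were called, against 13.2% of all genes. PRKCA (log2 fold change -0.41, adjusted p = 0.0227) and PRKCB (-0.38, 0.0147) were 2 lower isoforms, where 8.05% of all genes were lower. PRKCH (0.35, 0.0321), PRKCQ (0.31, 0.0479) and PRKCI (0.34, 0.0254) were 3 higher isoforms, where 5.13% of all genes were higher. HHH and general libraries did not overlap for 6 of 8 isoforms in batch 2, where 36.2% of all genes did not, and for 4 of 8 in batch 1 (PRKCE, PRKCQ, PRKCI and PRKCZ), where 43.5% did not. The count in batch 1 was thus near that of all genes. PRKCZ counted there by a narrow margin, with a highest general value of 29.06 CPM and a lowest HHH value of 29.07 CPM. Both classical isoforms were on the lower side in batch 2, while the called nPKC and atypical isoforms were on the higher side. The isoforms not called were split. The nPKC isoform PRKCD (-0.25, adjusted p = 0.124) and the atypical PRKCZ (-0.13, 0.315) were lower, and PRKCE (0.38, 0.219) was higher.

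The atypical isoform PRKCI differed in direction between batches. In batch 1 it measured 228 and 201 CPM in general and 188 and 192 CPM in HHH, with both HHH libraries lower. In batch 2 it measured 172, 182 and 161 CPM in general and 216, 205 and 234 CPM in HHH, with all HHH libraries higher. The log2 fold change was -0.18 (95% interval -0.44 to 0.08) in batch 1 and 0.34 (0.15 to 0.53) in batch 2, and 0.14 over both (SE 0.0977, adjusted p = 0.446). The difference between batches itself was 0.52 (SE 0.141) with an adjusted p of 0.0992 in edgeR, and did not pass the threshold. For PRKCE, measured with far fewer counts, the difference was larger and its interval wider, at 0.85 (95% interval 0.11 to 1.59, adjusted p = 0.209). With the trend of counts on GC content removed that of PRKCI was 0.34 (adjusted p = 0.293). PRKCI has the lowest GC content of the 8 genes, with a fraction of 0.371 against 0.473 to 0.579. No isoform was called for a difference between batches by edgeR (0 of 8, with 2, PRKCI and PRKCE, at an unadjusted p under 0.05), where 0.777% of all genes were.

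PRKCIP1, a processed pseudogene of PRKCI at chrX:101537485-101539276, followed its parent. It measured 30.8 to 40.4 CPM in batch 1 and 25.3 to 38.8 CPM in batch 2, and was higher in HHH in batch 2 (log2 fold change 0.37, adjusted p = 0.0198). The authors' counting may split reads between the pseudogene and PRKCI, so the level of PRKCI is uncertain by the counts given to the copy. PRKCZ, the other atypical isoform, measured 29.1 and 28.1 CPM in general and 29.1 and 33.3 CPM in HHH in batch 1. In batch 2 it measured 35.8, 33.9 and 36.2 CPM in general and 32.4, 34.8 and 30.0 CPM in HHH. The populations overlapped in batch 2, and the log2 fold change over both batches was -0.02 with a 95% interval of -0.19 to 0.14 (adjusted p = 0.891). This value covers opposite directions, with 0.12 in batch 1 alone and -0.13 in batch 2 alone, neither of which was called. PRKCZ and PRKCI varied in opposite senses across libraries, with a correlation of -0.718 after batch means were subtracted (10 libraries, a description).

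PRKCQ-AS1, a long non-coding RNA on the opposite strand beside PRKCQ, was higher in HHH in batch 2 (0.36, adjusted p = 0.0379), as PRKCQ was. In GENCODE the genes do not overlap, but the RefSeq first base of PRKCQ, at 6580646, lies inside PRKCQ-AS1, which begins at 6580419 on chromosome 10. Whether the counting used strand is not given in the sources used here, so reads from the ends of these genes may not be told apart. Of the exonic bases of PRKCH 11.7% are shared with other genes, TMEM30B on the opposite strand among them, and 8.75% of those of PRKCZ are shared with FAAP20 and PRKCZ-AS1. TMEM30B had a log2 fold change of 0.19 (adjusted p = 0.215) and FAAP20 of 0.09 (0.603).

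PRKCH, PRKCB and PRKCE were higher in batch 2 than in batch 1, which made 3 of 8 isoforms, where 47.9% of all genes were called in either direction, so the isoforms were not called more often than genes in general. PRKCH was 3.00-fold higher (log2 fold change 1.58, SE 0.135, adjusted p = 7.54e-07), from 5.55 to 10.6 CPM in batch 1 to 18.1 to 26.7 CPM in batch 2. PRKCE was 2.06-fold higher (1.04, SE 0.204, adjusted p = 8.46e-04) and PRKCB 1.61-fold higher (0.69, SE 0.0943, adjusted p = 5.15e-05). For each of the 3 the libraries of batch 1 were all under those of batch 2. The other isoforms differed by log2 fold changes between -0.07 for PRKCI and 0.18 for PRKCZ, none of which passed. For PRKCH the difference between batches was larger than that between populations in either batch. All exonic bases of ENSG00000258989 lie within exons of other genes, PRKCH among them, and this gene was also higher in batch 2 (log2 fold change 1.86, adjusted p = 5.91e-07).

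**Figure D4:**
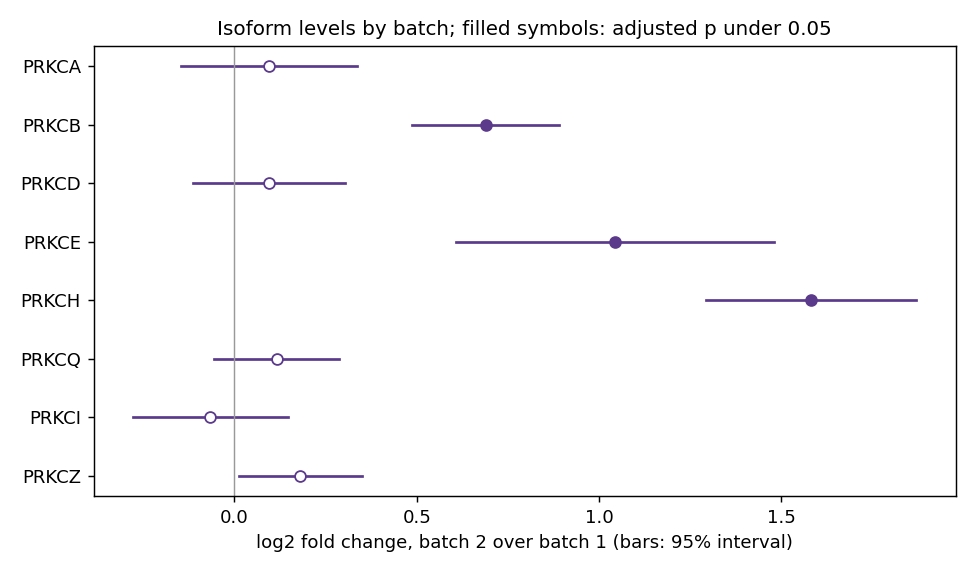
Log2 fold change of batch 2 over batch 1 (horizontal axis, bars are 95% intervals) for each isoform, from the fit with population as the other term. PRKCH (1.58), PRKCE (1.04) and PRKCB (0.69) passed an adjusted p of 0.05, shown as filled symbols.

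The genes around the isoforms were called about as often as genes in general over both batches. Of 81 genes in 8 lists (enzymes that make or remove diacylglycerol, related kinases, factors for PKC maturation, anchors, substrates, partners and other diacylglycerol receptors) 79 were in the table and 77 were tested. Of these, 2 were higher and 3 lower in HHH, where 1.94% of all genes were higher and 3.89% lower, and the median log2 fold change was -0.02, against 0.02 for all genes tested. The enzymes upstream are described by their counts, with no test of the group. Among 12 phospholipases C, 11 had a negative log2 fold change, the median was -0.22, and 2 were called lower. Of all 23552 genes tested, 11071 had a negative value. PLCH1, of the eta type, fell from 35.3 ± 4.58 CPM in general to 28.0 ± 2.99 CPM in HHH (SD, n = 5 each; log2 fold change -0.33, adjusted p = 0.0118). PLCB4, of the G protein-coupled beta type, fell from 13.4 ± 2.80 to 10.9 ± 2.27 CPM (-0.30, adjusted p = 0.0336). For PLCH1 all 5 HHH libraries lay under the general mean of the same batch. In batch 2 alone 5 of the 12 were lower, where 8.05% of all genes were, and in batch 1 alone none was called and 8 of the 12 were negative.

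Of 9 diacylglycerol kinases tested, which remove the activator of classical and nPKC isoforms by phosphorylating it, 1 was called. DGKG rose from 2.31 ± 0.629 CPM in general to 3.83 ± 0.538 CPM in HHH (log2 fold change 0.75, adjusted p = 0.00167), and was higher in 5 of 5 HHH libraries. The list as a whole was split, with 4 positive and 5 negative values. Of 8 anchors, CAVIN3, which binds PRKCD at caveolae, fell from 10.1 ± 1.30 to 7.13 ± 1.39 CPM (-0.51, adjusted p = 0.0392), and the other 7 were not called. Of 9 substrates tested PPP1R14B, an inhibitor of myosin phosphatase that PKC activates, rose from 60.4 ± 10.4 to 81.0 ± 24.9 CPM (0.39, adjusted p = 0.00866). PPP1R14B was called in neither batch alone, with 0.60 in batch 1 (adjusted p = 0.0652) and 0.23 in batch 2 (0.0607). No gene was called among the 6 related kinases, 11 maturation factors, 13 partners of atypical PKC and 9 other diacylglycerol receptors. When 1 library at a time was left out, DGKG, PPP1R14B and PLCH1 stayed called in 10 of 10 fits, CAVIN3 in 3 and PLCB4 in 2.

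**Figure D5:**
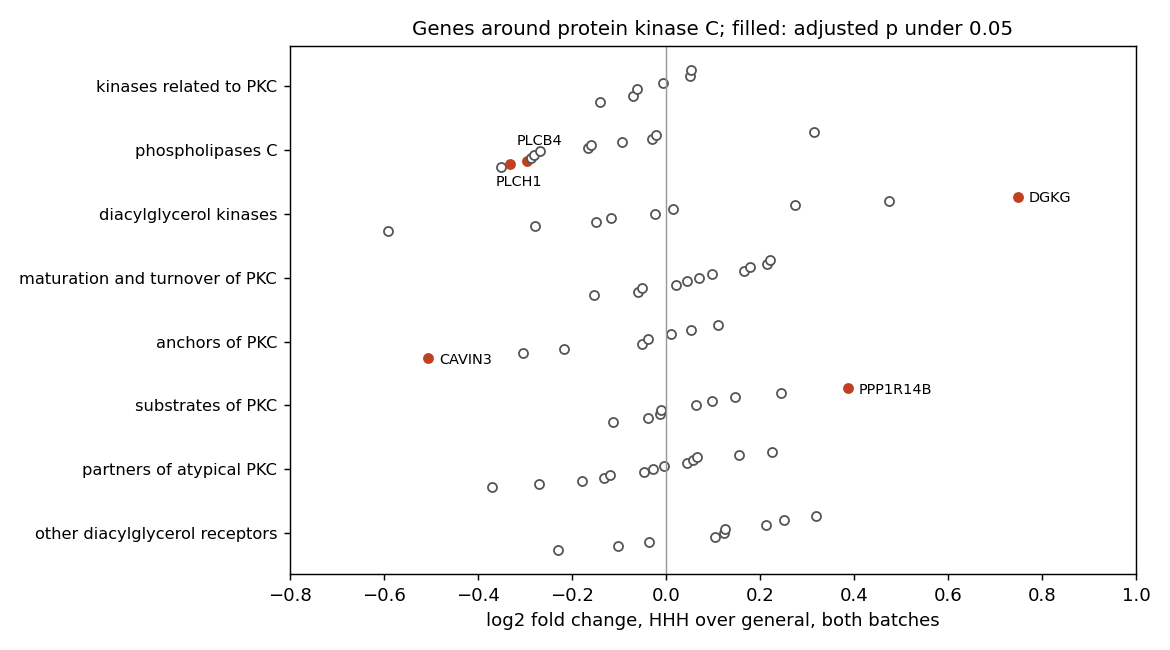
Log2 fold change of HHH over general in both batches (horizontal axis) for the 77 tested genes of 8 lists around PKC (vertical axis). Each point is 1 gene, and filled points passed an adjusted p of 0.05. DGKG (0.75) and PPP1R14B (0.39) were higher, and PLCH1 (-0.33), PLCB4 (-0.30) and CAVIN3 (-0.51) lower.

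The defining partners had log2 fold changes near 0. PDPK1, which phosphorylates the activation loop of every PKC, had a log2 fold change of -0.06 (95% interval -0.22 to 0.10, adjusted p = 0.696). RACK1, a ribosomal scaffold that binds active PKC, had 0.01 (-0.17 to 0.19, adjusted p = 0.963), and its sign changed with the scaling (-0.02 with library size only). PARD3 and PARD6B, the PAR proteins that hold PRKCI at cell junctions, had -0.05 (-0.19 to 0.10) and 0.04 (-0.16 to 0.25). In batch 2 alone 17 of the 77 genes were called, 6 higher and 11 lower, where 13.2% of all genes were called, 5.13% as higher and 8.05% as lower. MARCKS and DGKK are not analysed here.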

How the data were processed

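RNA of 10 libraries was sequenced from TruSeq libraries. The authors deposited whole counts per Ensembl gene, without normalization, and log2 RPKM values after TMM scaling, a score used only as an alternative. Its mean per gene is equal in both batches. The submitters' processing notes name CASAVA 1.8.2, R 3.2.2, limma 3.26.9 and GRCh37. The aligner, counting tool, strand setting and annotation are not given in the sources used here. Population, batch and replicate number came from the titles.

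Identifiers were matched to GENCODE 44 (88.5% of all, 94.0% of those tested). Genes were kept by filterByExpr (minimum count 10), scaled by TMM and tested with edgeR 4.0.16 in R 4.3.3 (quasi-likelihood F test, two-sided, Benjamini-Hochberg, adjusted p under 0.05), checked on simulated data. The common biological coefficient of variation was 0.128. No pair of replicates was a duplicate (chi-square 5.77 to 48.7 times its degrees of freedom). Alternatives used DESeq2 1.42.0 and limma 3.58.1, other scalings and filters, removal of the GC trend, a replicate block, single batches and the omission of single libraries.

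Named genes were all 8 isoforms, at most 3 called genes per list and direction, the partners PDPK1, PARD3, PARD6B, RACK1 and MARCKS, loci that overlap, resemble or neighbour the isoforms, and for each called isoform the 3 genes most like it among those with a mean of at least 1 CPM. TMEM30B and FAAP20 are given beside the results they touch. The isoforms, lists and tests were chosen with earlier results of these data known.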

Additional observations from a re-analysis of the deposited data

How the results depend on the processing

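The 1 isoform called over both batches became 0 without the batch term, with library size only, in batch 1 alone, with limma on the deposited log2 values or with a fold change over 1.5 required, 3 with no filter, 5 in batch 2 alone, and 0 to 2 with 1 library left out. PRKCB was called in 13 of 25 alternatives and PRKCA in 6. The 5 called genes around PKC became 0 (no batch term, batch 1), 2 (library size only), 17 (batch 2), 11 (DESeq2) and 3 to 10 with 1 library left out, and the 1373 calls over all genes became 168 (no batch term), 136 (batch 1), 2423 (no filter), 3166 (batch 2) and 808 to 2347, the most without HHH replicate 3 of batch 1. With no filter 1 isoform, PRKCI, differed between batches (0.55, adjusted p = 0.0287). Per coding length the classical, nPKC and atypical shares were 10.6%, 15.4% and 73.9%. Of all calls 66.6% were lower in HHH, against 76.7% with library size only, 95.6% on the deposited values, 56.1% with no filter, 85.7% without the batch term and 49.3% in batch 1.

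Replicate numbers were not taken as pairing the libraries. On log2 of CPM + 0.5, the scale computed first, deviations of same-numbered libraries from their group means correlated at 0.16 in batch 1 and at 0.26, 0.15 and 0.088 in batch 2, the last under the 0.1 required of every pair. On edgeR's log2 CPM with a prior count of 2 they were 0.113, 0.239, 0.143 and 0.113, all over 0.1, but that scale was added after the calls of the blocked fit were known and so was not used to decide. Every batch 2 library correlated best with its own number, a hint from the data and not from the design. With the replicate block 3 isoforms were called (PRKCA, PRKCB and PRKCH), 7 genes around PKC and 1636 of all genes. With the GC trend removed and the replicate block the counts were 3, 10 and 2436, with 55.7% of all calls lower. General replicate 1 and HHH replicate 3 of batch 1 have no same-numbered library and add nothing to the comparison in these fits.

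Signs turned only for values that were not called over all 10 libraries. Of these, PRKCI, PRKCIP1 and PRKCQ-AS1 were called higher in batch 2 alone. In batch 1 the values that turned were PRKCE (-0.47), PRKCI (-0.18), PRKCZ (0.12), PDPK1 (0.023), PARD6B (-0.090), RACK1 (-0.063), PRKCIP1 (-0.26) and PRKCQ-AS1 (-0.020). On the deposited values they were PRKCE (-0.11), PARD6B (-0.085), RACK1 (-0.12) and PRKCIP1 (-0.0038). PRKCZ was 0.032 with the GC trend removed and 0.0050 with the block added. RACK1 was -0.013 with upper quartile scaling, -0.023 with library size only and -0.0010 at 1 CPM or more in 5 libraries. With 1 library left out the ranges were -0.070 to 0.20 (PRKCE), -0.076 to 0.016 (PRKCZ), -0.029 to 0.12 (PARD6B), -0.034 to 0.060 (RACK1) and, for batch 2 over batch 1, -0.14 to 0.026 (PRKCI). Differences of the HHH effect between batches ranged from -0.40 to 0.10 (PRKCA), -0.30 to 0.035 (PRKCB), -0.26 to 0.12 (PRKCD) and -0.32 to 0.40 (PRKCH). That of PRKCD was 0.025 with the GC trend removed, and that of PRKCH 0.014 with RLE scaling, 0.030 with no filter and 0.016 with the GC trend removed. The causes were not tested. Depth limits PRKCE most, with 25 to 127 counts, against 297 to 14861 for the other isoforms.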
